A study of Mus musculus with 21 samples.

Results

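The cytosolic ribosomal protein genes were followed in 21 RNA-seq libraries of mouse embryonic stem cells (mESCs) that lacked or were depleted of PDS5A, PDS5B, STAG1 or STAG2. Members were all gene symbols of the count files made of Rpl or Rps, a number and an optional letter ending, plus Rplp0, Rplp1, Rplp2 and Rpsa, and Rps6k kinases and Rpl10l were left out. This gave 84 of the 23412 symbols, 33 of the small and 51 of the large subunit. Of these, 83 passed the filter on low counts, as did 14963 of all genes, and Rpl26 was listed at 0 in every library. All cells were v6.5 mESCs, a male line, transfected with 50 nM siRNA, with RNA collected 48 h later, in 7 conditions of 3 libraries each. WT mESCs received siGLO, a control siRNA, or siPds5b. Pds5b-/- mESCs received siGLO, and Pds5a-/- mESCs received siGLO, siPds5b, siStag1 or siStag2. Each knockout was 1 CRISPR clone, edited in exon 2 of Pds5a or exon 3 of Pds5b, so effects of the clone and of the gene cannot be told apart. The labels do not say whether replicates were separate cultures, and p-values measure only the spread between these libraries. Total counts per library ranged from 17311090 to 23989198 with a median of 19628146.

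Each cytosolic ribosome holds a small subunit that decodes the mRNA and a large subunit that joins amino acids, and most of their proteins are encoded by a single expressed gene. These genes are among the most transcribed in growing cells. Many of their mRNAs start with a run of pyrimidines, the 5′ TOP motif, through which mTOR and LARP1 set their translation. A few members have a paralog that can take the place of the main protein in the ribosome, such as Rpl22l1 for Rpl22 and Rpl39l for Rpl39. PDS5A and PDS5B are regulators of cohesin, the ring complex that holds and folds DNA, and STAG1 and STAG2 are alternative subunits of that complex.

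The promoters of the 4 members with the most distinct patterns are shown because the members otherwise moved together. Each line gives the 100 bases before the RefSeq start of the gene in build GRCm38.p6, 5′ to 3′ on the strand of the gene, and capitals mark the letters CCGGAAG or their reverse complement CTTCCGG, the core that ETS factors such as GABP bind.
Rpl22, chr4:152325626-152325725, plus strand: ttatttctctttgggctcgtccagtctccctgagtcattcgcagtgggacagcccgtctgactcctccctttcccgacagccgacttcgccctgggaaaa
Rpl22l1, chr3:28805408-28805507, plus strand: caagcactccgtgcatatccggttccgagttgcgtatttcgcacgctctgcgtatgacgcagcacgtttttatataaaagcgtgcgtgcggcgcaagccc
Rplp2, chr7:141447551-141447650, plus strand: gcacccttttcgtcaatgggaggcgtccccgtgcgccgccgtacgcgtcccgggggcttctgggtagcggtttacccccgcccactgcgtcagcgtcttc
Rpl39l, chr16:10170128-10170227, plus strand: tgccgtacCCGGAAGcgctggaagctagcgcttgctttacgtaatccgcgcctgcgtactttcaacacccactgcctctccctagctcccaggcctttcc
Of these stretches only that of Rpl39l held the motif, and in the longer window described next Rplp2 held 1 match and Rpl22 and Rpl22l1 held 0. In the whole promoter window, from 250 bases before the start to 50 after it, 26 of the 63 members with a RefSeq promoter (41.3%) held CCGGAAG on either strand, against 2104 of 16264 promoters of all genes in the files (12.9%). The pyrimidine motif CTTTCC, searched on both strands of the same window, was in 33 of 63 members (52.4%) and in 29.3% of all promoters. A match of letters is a description of the sequence and not a measure of binding.

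The targeted transcripts were checked first. Pds5b was at 2354, 2019 and 2285 normalized counts in the 3 WT siGLO libraries, where a normalized count is the raw count after TMM scaling to a common library of 19816922 counts. It was at 238 to 312 in Pds5b-/- mESCs, at 687 to 839 in WT siPds5b mESCs and at 736 to 1073 in Pds5a-/- siPds5b mESCs. Stag1 was at 506 to 617 with siStag1, against 2180 to 2617 in WT siGLO mESCs, and Stag2 was at 821 to 954 with siStag2, against 3191 to 3653. Each of these transcripts was lower where its label named it. The edit of Pds5a need not remove its transcript, so its count is a weak check of the label. It was at 4786, 3788 and 4239 in Pds5a-/- siGLO mESCs and at 5256, 4720 and 5200 in WT siGLO mESCs, and these ranges overlapped.

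Most members were among the most abundant transcripts of the cells. Per kilobase of their shortest curated transcript, 72 of the 200 most counted genes were members, and the median member had 19340 normalized counts per kb, against 156 for all tested genes. In WT siGLO mESCs the highest levels were those of Rps2 with 55820 normalized counts per kb, Rplp1 with 48440 and Rps14 with 48420, proteins of the small subunit, the stalk of the large subunit and the small subunit. Over all libraries, the members with the most counts per kb were Rps2, Rpl23a and Rpl4. The value of Rps20, 4782 per kb, rested on an annotated transcript of 3706 bases and is uncertain.

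**Figure D1:**
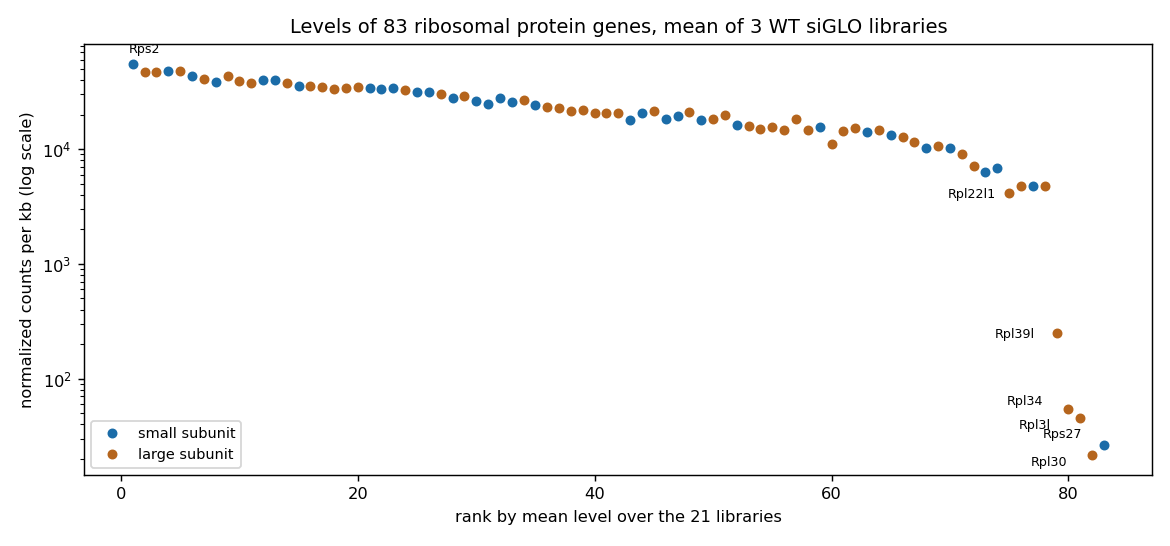
Normalized counts per kb (log scale) of 83 ribosomal protein genes in WT siGLO mESCs (mean of 3 libraries), ordered by their mean over the 21 libraries, with small subunit genes in blue and large subunit genes in brown. Rpl39l, Rpl34, Rpl3l, Rpl30 and Rps27 lie far below the other members.

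A few members were nearly absent from the counts. Rps27 had between 3 and 14 raw counts per library, Rpl30 between 5 and 21, and Rpl34 between 16 and 51, although every cell needs these proteins, and Rpl26 had 0. The reason was not tested, and their levels are given as listed. Rpl3l, a muscle paralog of Rpl3, had between 1 and 66 counts, and Rpl39l, a paralog best known from testis, had between 63 and 303. The other 78 members had at least 1000 normalized counts on average. Rps4y2, annotated as a transcribed processed pseudogene on chromosome 6, had 5081 normalized counts, and its counts may hold reads of Rps4x, of which it is a near copy.

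The share of all counts that fell on the members ranged from 5.92% to 8.26% over the libraries, and in 2 conditions the replicates spread widely. In WT siGLO mESCs it was 7.71%, 8.12% and 7.55%, a mean of 7.79% ± 0.291 (SD, n = 3). It was 8.16% ± 0.143 in WT siPds5b mESCs and 7.72% ± 0.385 in Pds5a-/- siGLO mESCs. The share was lower and wider in Pds5b-/- siGLO mESCs, at 5.92%, 6.65% and 7.54% (mean 6.70% ± 0.811), where all libraries lay under the lowest WT siGLO library. In Pds5a-/- siPds5b mESCs all libraries were also under WT siGLO, at 7.18%, 7.06% and 6.65% (mean 6.96% ± 0.276). Pds5a-/- siStag1 mESCs, at 7.58% ± 0.234, overlapped with WT siGLO. Pds5a-/- siStag2 mESCs had 6.07%, 7.78% and 6.84% (mean 6.89% ± 0.858), and the library of replicate 2 lay within the WT siGLO range. The share of oxidative phosphorylation genes was 1.16% ± 0.0393 in WT siGLO, 1.03% ± 0.0992 in Pds5b-/- siGLO and 0.943% ± 0.0811 in Pds5a-/- siStag2 mESCs. It was also lower in Pds5a-/- siGLO (1.07% ± 0.0260) and Pds5a-/- siStag1 mESCs (1.02% ± 0.0323), where the share of the members overlapped with WT siGLO. In Pds5a-/- siGLO mESCs the median log2 fold change of these genes was nevertheless 0.02, with 42 of 77 above 0, and Atp5b, an ATP synthase subunit, fell by 0.94. In bulk RNA, fewer cells of a type and less RNA per cell cannot be told apart.

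**Figure D2:**
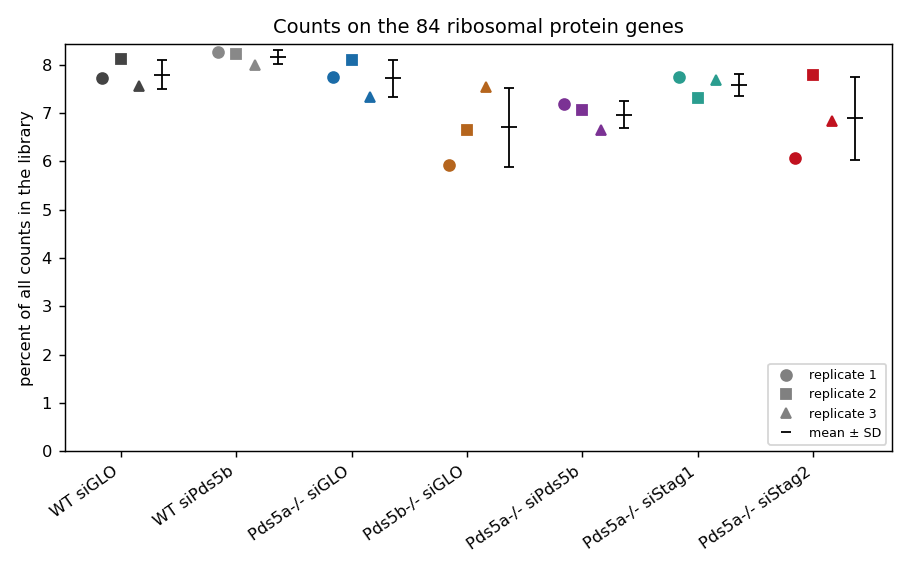
Percent of all counts of a library on the 84 ribosomal protein genes, by condition, with 1 symbol per library and the mean ± SD (n = 3) in black. The libraries of Pds5b-/- siGLO spread from 5.92% to 7.54% and those of Pds5a-/- siStag2 from 6.07% to 7.78%.

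Members rose and fell together from library to library. Among the 79 members with at least 100 mean normalized counts, the median correlation of a member with the mean of the others over the 21 libraries was 0.909, a description of libraries that share depth, condition and preparation. The lowest correlation, -0.24, was that of Rplp2, and Rpl22l1 (0.357), Rpl22 (0.438) and Rpl39l (0.464) also stood apart. The median within-condition SD of a member was 0.131 on the log2 scale, against 0.122 for all tested genes of at least the same level. Shorter transcripts varied more between replicates (Spearman rho of length and SD -0.54 over the 79 members). The short Rps29 and Rps28, both small subunit proteins, had SDs of 0.302 and 0.301, against 0.0881 for Rplp0 and 0.0884 for Rpl4. In Pds5a-/- siStag2 mESCs Rps29 was at 1829, 3618 and 2082 normalized counts, nearly as wide a range as over all libraries. The libraries of Pds5b-/- siGLO replicate 1 and Pds5a-/- siStag2 replicate 1 were the lowest for the median member, at -0.330 and -0.336 on the log2 scale against the mean of the 21 libraries.

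**Figure D3:**
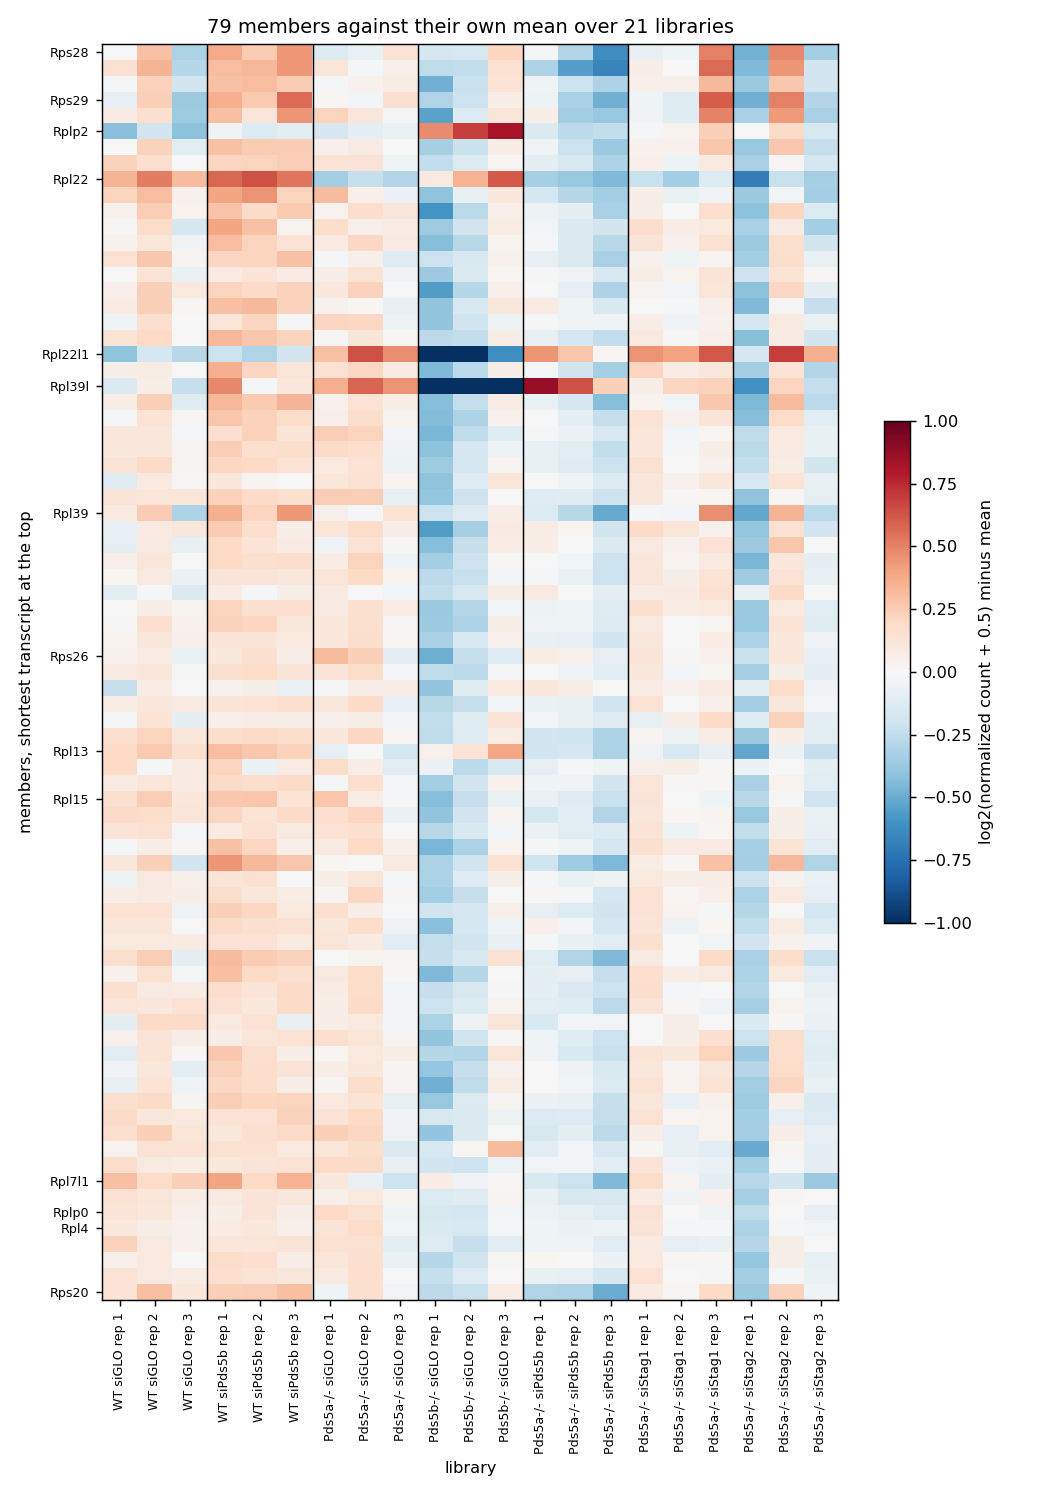
Level of the 79 members with at least 100 mean normalized counts in each library, as log2(normalized count + 0.5) minus the mean of the member over the 21 libraries, with the shortest transcript at the top, colours that stop at -1 and 1, and names for members described in the text. Most rows share the pattern of the columns, while Rplp2, Rpl22, Rpl22l1 and Rpl39l differ from it.

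Few members passed the test in either knockout. In Pds5a-/- siGLO against WT siGLO mESCs, 1 member rose (Rpl22l1) and 1 fell (Rpl22) at an adjusted p under 0.01, which is 2.41% of the 83 members beside 17.8% of all tested genes (9.63% higher and 8.12% lower). The 6 comparisons with WT siGLO share its libraries. In Pds5b-/- siGLO mESCs, Rplp2 rose and Rpl39l, Rpl15, Rpl12, Rpl23a and Rpl7a fell, 7.23% of the members beside 18.2% of all genes (9.64% higher and 8.57% lower). The median log2 fold change of the members was 0.01 in Pds5a-/- siGLO and -0.24 in Pds5b-/- siGLO mESCs, and that of all tested genes was 0.00 in both. The value was below 0 for 81 of the 83 members in Pds5b-/- siGLO mESCs. These lower values were not even between libraries, and with each library left out in turn the median for Pds5b-/- siGLO ranged from -0.30 (without Pds5b-/- replicate 3) to -0.15 (without Pds5b-/- replicate 1). Without Pds5b-/- replicate 3, the Pds5b-/- library with the highest share of member counts, 27 members were called (1 higher and 26 lower). Without any single other library of the comparison 2 or 3 were called. Over these 6 fits 1704 to 2611 of all tested genes were called, beside 2725 with all libraries.

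The other Pds5a-/- conditions were also set against WT siGLO mESCs, so their values hold the knockout and the siRNA together. Against WT siGLO mESCs, 1 member rose and 16 fell in Pds5a-/- siPds5b mESCs, 20.5% of the members beside 32% of all tested genes (17.4% higher and 14.6% lower), with a median log2 fold change of -0.19. The count was 6 without WT siGLO replicate 1, 8 without WT siGLO replicate 2, 11 without Pds5a-/- siPds5b replicate 2 and 7 without replicate 3 of that condition. With 1 library left out, 3836 to 4505 of all tested genes were called, beside 4787 with all libraries. In Pds5a-/- siStag2 mESCs 1 member rose and 8 fell, 10.8% beside 30.1% of all genes (16.2% higher and 13.9% lower), with a median of -0.17. Without Pds5a-/- siStag2 replicate 2, the siStag2 library with the highest share, 24 members fell and none rose, and the median was -0.31. Without another library of this comparison the count was 4 (WT siGLO replicate 1), 5 (WT siGLO replicate 2), 5 (Pds5a-/- siStag2 replicate 1) and 5 (Pds5a-/- siStag2 replicate 3). With 1 library left out, 3402 to 4036 of all tested genes were called, beside 4510 with all libraries. In Pds5a-/- siStag1 mESCs 2 members rose and 1 fell, 3.61% beside 20% of all genes (10.6% higher and 9.37% lower), with a median of -0.02.

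**Figure D4:**
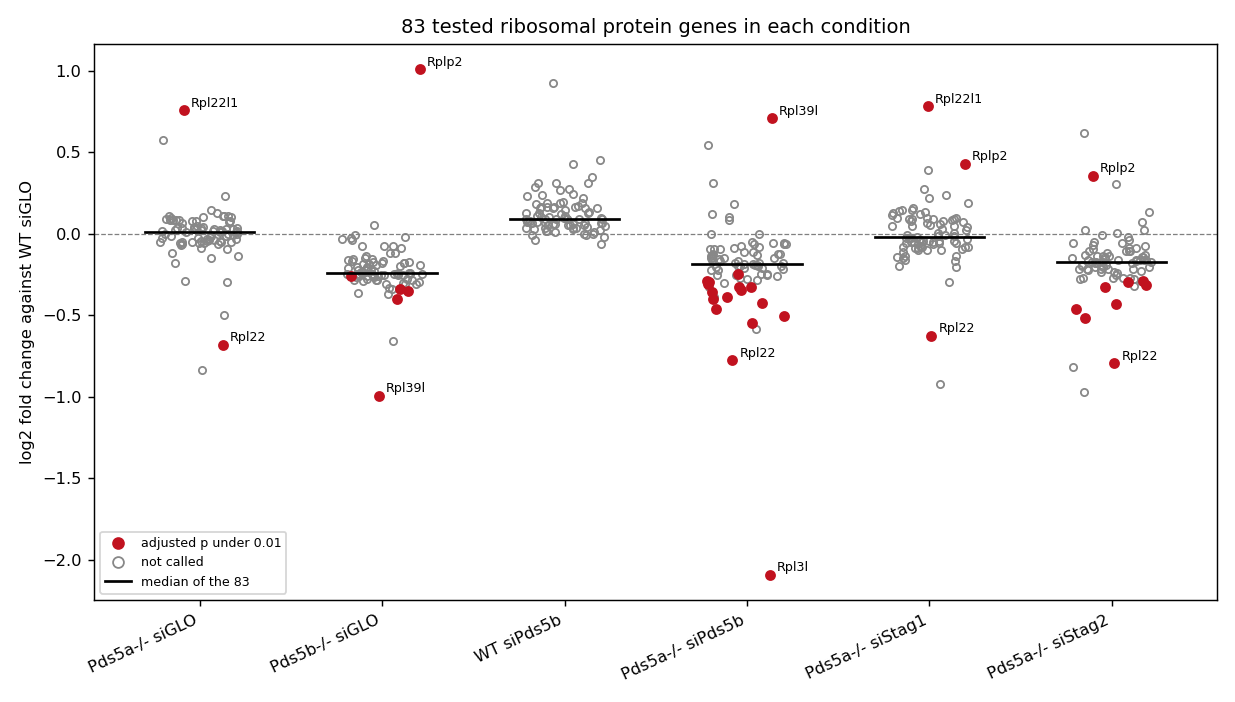
Log2 fold change against WT siGLO of the 83 tested ribosomal protein genes in 6 conditions, with called members (adjusted p under 0.01) in red, others as open circles and the median as a black line. The median lies near 0 in Pds5a-/- siGLO and siStag1 and at -0.24 in Pds5b-/- siGLO, and Rpl22 lies among the lowest members in all Pds5a-/- conditions.

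Rpl22 was lower and its paralog Rpl22l1 higher in the Pds5a-/- clone. Rpl22 encodes a large subunit protein that binds RNA and is known to hold down the mRNA of Rpl22l1, which can replace it in the ribosome. Rpl22 was at 8418, 9483 and 8266 normalized counts in WT siGLO mESCs and at 5239, 5658 and 5404 in Pds5a-/- siGLO mESCs. Every library of the 12 Pds5a-/- samples, from 4111 to 6024, lay below every library of the other conditions, from 7045 to 10300. Its log2 fold change against WT siGLO was -0.68 ± 0.11 (SE; adjusted p = 5.87e-05) with siGLO, -0.78 ± 0.11 (adjusted p = 5.1e-06) with siPds5b, -0.63 ± 0.11 (adjusted p = 0.000116) with siStag1 and -0.80 ± 0.11 (adjusted p = 4.83e-06) with siStag2. In Pds5b-/- siGLO mESCs Rpl22 was at 7045, 8442 and 10130, a log2 fold change of -0.03 ± 0.11 (adjusted p = 0.856), and the difference between the knockouts was -0.65 ± 0.11 (adjusted p = 9.56e-05).

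Rpl22l1 was at 2001, 2344 and 2186 normalized counts in WT siGLO mESCs, at 3253, 4118 and 3659 in Pds5a-/- siGLO mESCs and at 1091, 1297 and 1737 in Pds5b-/- siGLO mESCs. The 3 genotypes did not overlap under siGLO. The rise in Pds5a-/- siGLO mESCs was 0.76 ± 0.18 on the log2 scale (adjusted p = 0.0055), and its call was lost without any WT siGLO library or without Pds5a-/- siGLO replicate 2 or 3, where the adjusted p was at most 0.0272, and the value over the 6 fits that leave out a library was 0.66 to 0.83. In Pds5b-/- siGLO mESCs the value was -0.66 ± 0.19 (adjusted p = 0.0137). The direct difference between the knockouts, 1.42 ± 0.19 (adjusted p = 3.31e-05), kept its call under every alternative. With siStag1 the rise against WT siGLO was 0.78 ± 0.18 (adjusted p = 0.00404). That call was lost without WT siGLO replicate 1 or 3 or without Pds5a-/- siStag1 replicate 3 (adjusted p up to 0.0202). With siPds5b (0.54 ± 0.18, adjusted p = 0.0248) and siStag2 (0.62 ± 0.18, adjusted p = 0.0129) the value did not pass with the edgeR settings used throughout. DESeq2 called Rpl22l1 in both of these comparisons and in Pds5b-/- siGLO mESCs. Fits of only the conditions compared called it with siPds5b and in Pds5b-/- siGLO mESCs, and it was also called in Pds5b-/- siGLO mESCs without Pds5b-/- replicate 3. With siStag2 it was called on genes with at least 10 counts in every library and without siStag2 replicate 1.

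The ratio of these paralogs, of counts not scaled for length, separated the genotypes. Rpl22l1 counts were 24.98% ± 1.36 of Rpl22 counts in WT siGLO and 22.8% ± 1.66 in WT siPds5b mESCs (SD, n = 3). In the Pds5a-/- conditions they were 67.5% ± 5.34 with siGLO, 62.1% ± 6.66 with siPds5b, 66.2% ± 2.08 with siStag1 and 65.6% ± 9.15 with siStag2. In Pds5b-/- siGLO mESCs the ratio was 16.0% ± 0.994, with all libraries between 15.4% and 17.2% and below every WT library. The summed counts of both genes were 10900 ± 803 in WT siGLO, 9111 ± 643 in Pds5a-/- siGLO and 9916 ± 1870 in Pds5b-/- siGLO mESCs.

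Rplp2 moved against the other members in Pds5b-/- mESCs. It encodes P2, an acidic protein of the ribosomal stalk, which recruits elongation factors with P1 (Rplp1) and P0 (Rplp0). Rplp2 was at 4442, 5196 and 4465 normalized counts in WT siGLO mESCs and at 8216, 9608 and 10530 in Pds5b-/- siGLO mESCs, which lay above all other libraries. The log2 fold change was 1.01 ± 0.09 (adjusted p = 2.24e-08). Its partners did not follow, since Rplp0 had -0.21 ± 0.08 (adjusted p = 0.0344) and Rplp1 -0.37 ± 0.14 (adjusted p = 0.0425), neither of which passed, though Rplp1 was called without Pds5b-/- replicate 3.

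Acute knockdown of PDS5B in WT mESCs left Rplp2 at 5785, 5401 and 5519, a log2 fold change of 0.24 ± 0.09 that did not pass (adjusted p = 1). In Pds5a-/- mESCs Rplp2 was at 5285, 5590 and 5660 with siGLO (0.23 ± 0.09, adjusted p = 0.0644). It rose against WT siGLO with siStag1 (0.43 ± 0.09, adjusted p = 0.000974) and with siStag2 (0.35 ± 0.09, adjusted p = 0.00334). The siStag1 call was lost without Pds5a-/- siStag1 replicate 3 (adjusted p = 0.0143), and the siStag2 call without WT siGLO replicate 1 or 3 or Pds5a-/- siStag2 replicate 2 (adjusted p up to 0.0357). Against Pds5a-/- siGLO mESCs neither siRNA passed the test for Rplp2 (0.20 ± 0.09, adjusted p = 0.442, with siStag1 and 0.12 ± 0.09, adjusted p = 0.422, with siStag2).

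**Figure D5:**
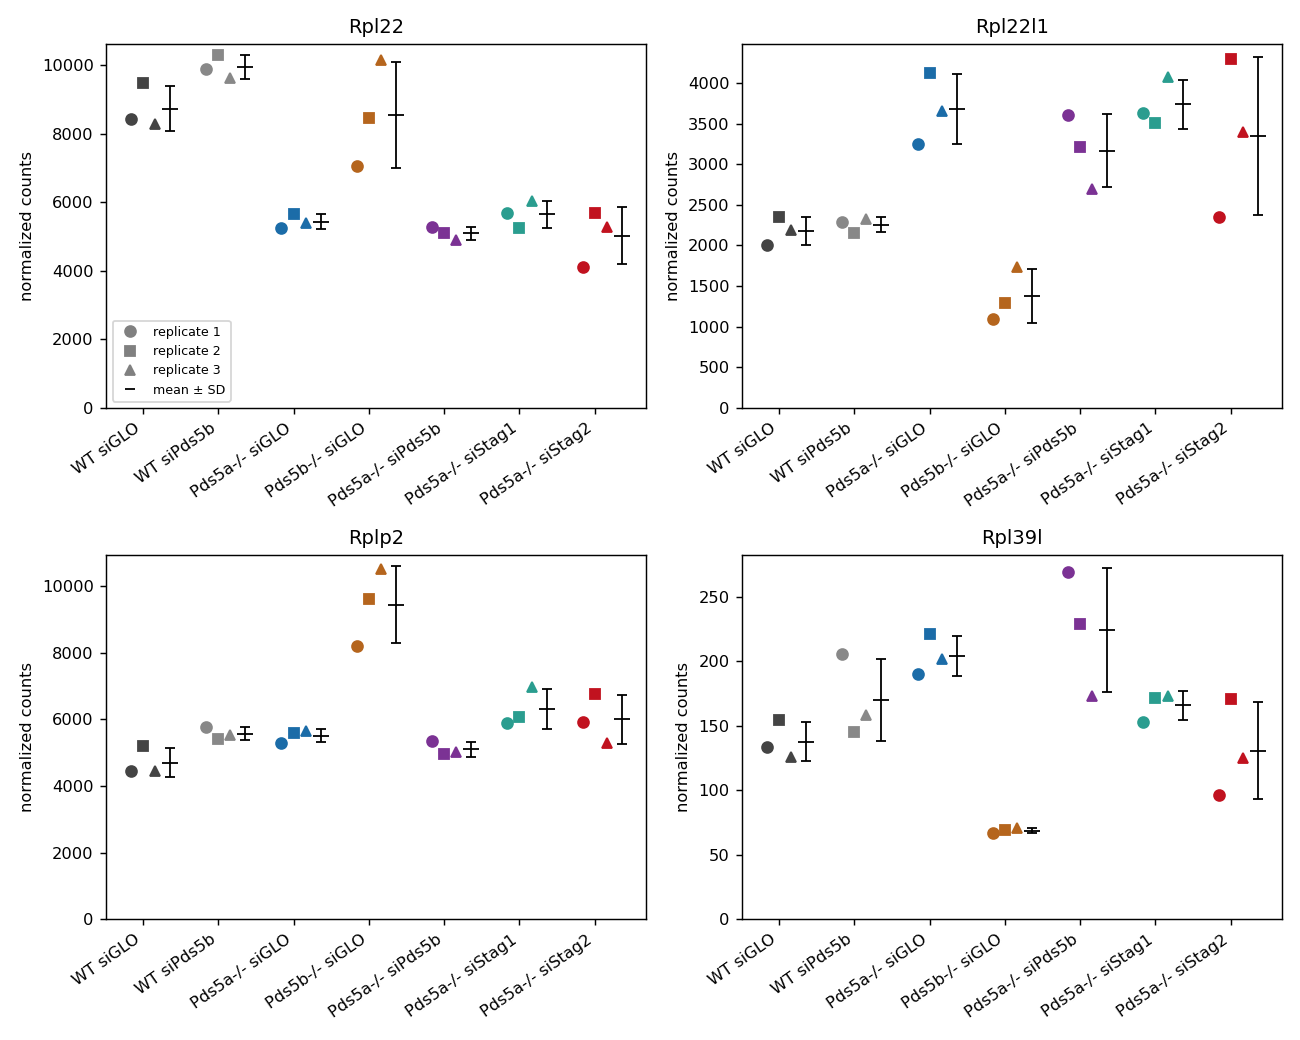
Normalized counts of Rpl22, Rpl22l1, Rplp2 and Rpl39l in each library, by condition, with the mean ± SD (n = 3) in black and every axis from 0. Rpl22 is lower in all 12 Pds5a-/- libraries, and Rplp2 is highest and Rpl39l lowest in the 3 Pds5b-/- libraries.

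Rpl39l, the paralog of the small exit-tunnel protein gene Rpl39, fell in Pds5b-/- mESCs and differed between the knockouts. Its normalized counts were 133, 154 and 126 in WT siGLO mESCs and 66.5, 68.8 and 70.9 in Pds5b-/- siGLO mESCs, the lowest of all conditions, a log2 fold change of -0.997 ± 0.20 (adjusted p = 0.000481). They were 190, 221 and 201 in Pds5a-/- siGLO mESCs, where the value of 0.57 ± 0.18 did not pass (adjusted p = 0.0192). The knockouts differed by 1.57 ± 0.19 (adjusted p = 1.42e-06). In Pds5a-/- siPds5b mESCs Rpl39l was at 269, 229 and 173, a rise of 0.71 ± 0.18 against WT siGLO (adjusted p = 0.00254), which lost its call without WT siGLO replicate 1 or 3 or Pds5a-/- siPds5b replicate 1 (adjusted p up to 0.0268). With siStag1 (153, 171 and 173) the value of 0.27 and with siStag2 (96.6, 170.8 and 125) the value of -0.08 did not pass. Rpl39 itself had values from -0.33 to 0.31 in the 6 comparisons with WT siGLO and passed in none. Rpl39l counts were 4.76% ± 0.583 of Rpl39 counts in WT siGLO, 2.55% ± 0.172 in Pds5b-/- siGLO, 6.85% ± 0.814 in Pds5a-/- siGLO, 9.52% ± 0.875 in Pds5a-/- siPds5b, 5.27% ± 0.852 in Pds5a-/- siStag1 and 4.91% ± 0.289 in Pds5a-/- siStag2 mESCs.

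Among the other paralogs, Rpl7l1 fell in Pds5a-/- siPds5b (-0.51 ± 0.09, adjusted p = 5.35e-05) and Pds5a-/- siStag2 mESCs (-0.52 ± 0.09, adjusted p = 5.3e-05). Its value in Pds5a-/- siGLO mESCs, -0.30 ± 0.09, did not pass (adjusted p = 0.0128), although the libraries did not overlap with WT siGLO, and it was called there by DESeq2, with library size only, with the replicate block and without Pds5a-/- siGLO replicate 1. The partner of Rpl7l1, the large subunit protein gene Rpl7, fell with siPds5b and siStag2, with values of -0.30 ± 0.07 (adjusted p = 0.0019) and -0.31 ± 0.07 (adjusted p = 0.00142), and lost its call with siPds5b without WT siGLO replicate 1 or siPds5b replicate 3, and with siStag2 without siStag2 replicate 1. Rpl7l1 counts were 15.5% ± 0.323 of Rpl7 in WT siGLO and 12.9% ± 1.11 in Pds5a-/- siGLO mESCs. Rpl36a fell with siPds5b and siStag2 too (-0.46 ± 0.12, adjusted p = 0.00275, and -0.43 ± 0.12, adjusted p = 0.00483), while Rpl36al had -0.21 ± 0.12 and -0.20 ± 0.12 (adjusted p = 0.148 and 0.187). Each Rpl36a call was lost without WT siGLO replicate 1 or 2. It was also lost without replicate 2 or 3 of siPds5b, or without replicate 1 or 3 of siStag2 (adjusted p up to 0.0332). Rpl3l passed in Pds5a-/- siPds5b mESCs at -2.09 ± 0.49 (adjusted p = 0.00126), from 42.1, 65.3 and 33.9 to 20.4, 1.04 and 9.97 normalized counts, which is too few for a firm size. Rps4y2, Rps27l and Rps4x were not called against WT siGLO with the edgeR settings used throughout, but some alternatives called them. Rps4x was called in Pds5a-/- siPds5b mESCs by DESeq2 and by edgeR with no filter, with only the conditions compared or without siPds5b replicate 1. Rps27l was called in Pds5a-/- siStag2 mESCs by DESeq2 and without siStag2 replicate 2, and in Pds5b-/- siGLO mESCs without Pds5b-/- replicate 3, and the replicate block called Rps4y2 in Pds5b-/- siGLO mESCs.

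The members that fell in Pds5a-/- siPds5b mESCs came from both subunits, 10 of 50 tested large and 6 of 33 tested small. After Rpl3l and Rpl22, the largest decreases were those of Rps20 (-0.55 ± 0.11, adjusted p = 0.000359), Rpl7l1 and Rpl36a. Rps20, a small subunit protein, went from 17180, 19200 and 16790 normalized counts in WT siGLO to 12660, 12540 and 11090. The libraries of the 2 conditions did not overlap. Rpl13 (-0.43 ± 0.09, adjusted p = 0.000626), Rpl17 (-0.40 ± 0.09, adjusted p = 0.000729) and Rps7 (-0.36 ± 0.10, adjusted p = 0.00553) also fell, but Rps7 lost its call without any single WT siGLO library or without siPds5b replicate 3. In Pds5a-/- siStag2 mESCs Rpl13 fell by 0.46 ± 0.09 (adjusted p = 0.000323), from 33760, 35330 and 33000 to 20530, 28380 and 25080. Of the members called in that comparison, only Rps24 had overlapping libraries.

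Among the members that fell in Pds5b-/- siGLO mESCs, Rpl15 was at 16800, 17760 and 16140 normalized counts in WT siGLO and at 11200, 12780 and 14360 in Pds5b-/- siGLO mESCs (-0.40 ± 0.09, adjusted p = 0.00156), and its call was lost without WT siGLO replicate 2 or Pds5b-/- replicate 1 (adjusted p up to 0.0208). Rpl12 (-0.35 ± 0.10, adjusted p = 0.00803), Rpl23a (-0.34 ± 0.09, adjusted p = 0.00622) and Rpl7a (-0.26 ± 0.07, adjusted p = 0.00896) were near the threshold. Each of these 3 lost its call without any single WT siGLO library and without Pds5b-/- replicate 1 or 2 (adjusted p up to 0.0776 for Rpl12). Rpl15, Rpl12 and Rpl23a overlap the genes Nkiras1, Lrsam1 and Tlcd1 on the other strand, and the use of strand in counting is not given in the sources used here. Of the 33 small subunit members, 0 were called by edgeR without a block, 2 by edgeR with the replicate block (Rps7 and Rps4y2, for 8 members in all) and 2 by DESeq2 (Rps7 and Rpsa), and 21 had an unadjusted p under 0.05. The median was -0.23 for the small and -0.25 for the large subunit members.

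Compared directly, the knockouts differed in 10 members. In Pds5a-/- siGLO against Pds5b-/- siGLO mESCs 8 members were higher and 2 lower, 12% beside 19.2% of all tested genes (9.74% higher and 9.46% lower). The higher ones were Rpl39l, Rpl22l1, Rps26, Rpl23a, Rpl15, Rps15, Rpl24 and Rps25, and the lower ones were Rplp2 and Rpl22. Rps26, a small subunit protein at the mRNA exit, was at 32190, 30510 and 24180 normalized counts in Pds5a-/- siGLO and at 18490, 21950 and 23650 in Pds5b-/- siGLO mESCs (0.44 ± 0.10, adjusted p = 0.00169). Its call was lost without Pds5a-/- siGLO replicate 1 or 2 or Pds5b-/- replicate 1 (adjusted p up to 0.0228). The median over all members was 0.22, and it ranged from 0.13 without Pds5b-/- replicate 1 to 0.30 without Pds5b-/- replicate 3. Without Pds5b-/- replicate 3 the count was 29 (27 higher and 2 lower). It was 5 without Pds5a-/- siGLO replicate 1, 4 without Pds5a-/- siGLO replicate 2, 5 without Pds5b-/- replicate 1 and 6 without Pds5b-/- replicate 2. With 1 library left out, 1722 to 2683 of all tested genes were called, beside 2873 with all libraries.

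Within a genotype the siRNAs changed few members. In WT mESCs siPds5b changed 0 members by edgeR and 0 by DESeq2, beside 0.00668% of all genes, and 2 members had an unadjusted p under 0.05. In Pds5a-/- mESCs siPds5b against siGLO lowered Rpl17, a large subunit protein (-0.34 ± 0.09, adjusted p = 0.0094), 1.2% of the members beside 7.59% of all genes (4% higher and 3.59% lower). Same-numbered libraries deviated together in this comparison, and a fit blocked on that number also called Rps20, for 2 members in all. The count was 3 without Pds5a-/- siGLO replicate 3 and 0 without any single other library of the comparison. With 1 library left out, 689 to 946 of all tested genes were called, beside 1136 with all libraries. With siStag1 against siGLO 0 members were called by edgeR (1 at an unadjusted p under 0.05, 0 by DESeq2), beside 0.0936% of all genes (0.0134% higher and 0.0802% lower). With siStag2 0 were called by edgeR and 1 by DESeq2, Rpl7, beside 2.24% of all genes (0.969% higher and 1.27% lower). An unadjusted p under 0.05 was found for 31, and the share of all genes at that threshold is not printed. The edgeR count of called members was 1 without Pds5a-/- siStag2 replicate 2 or Pds5a-/- siGLO replicate 3. With 1 library left out, 68 to 375 of all tested genes were called, beside 335 with all libraries.

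The response to siPds5b was also compared between WT and Pds5a-/- mESCs, where no member passed the test of the difference. The median log2 fold change was 0.09 in WT and -0.20 in Pds5a-/- mESCs, and the median of the interaction was -0.28, with 82 of the 83 values below 0. No member was called for the interaction by edgeR or DESeq2, beside 1.48% of all genes (0.588% higher and 0.896% lower), and the lowest adjusted p was 0.0719. An unadjusted p under 0.05 was found for 39 members, a count not set here beside the share of all genes. In 16 members every siPds5b library lay above every siGLO library in WT mESCs and below it in Pds5a-/- mESCs, 19.3% of the members beside 0.829% of all tested genes. They included Rps29, Rpl37, Rpl37a and Rpl36al, with interaction values from -0.23 to -0.78 over the 16. The members vary together between libraries, so these are not 16 separate observations.

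Some members have known roles outside the ribosome. Rpl5 and Rpl11, which bind the 5S rRNA and can hold back MDM2, had log2 fold changes against WT siGLO from -0.24 to 0.04 and from -0.25 to 0.17, and were called in none of the 6 comparisons with the edgeR settings used throughout. Rpl5 was called in Pds5a-/- siStag2 mESCs by DESeq2 and without siStag2 replicate 2, and in Pds5a-/- siPds5b mESCs by edgeR with only the conditions compared. Rpl11 was called in Pds5b-/- siGLO mESCs without Pds5b-/- replicate 3. Rpsa, also a laminin receptor, had values from -0.28 to 0.00 and was not called with the edgeR settings used throughout, while DESeq2 and edgeR with library size only called it in Pds5b-/- siGLO mESCs. Rps27a, which encodes a fusion of ubiquitin with a small subunit protein, passed by neither tool (-0.23 to 0.12). Of the 83 tested members, 58 were called by edgeR in none of the 11 comparisons and Rpl22 in the most, 5.

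Other genes of the ribosome and its supply were counted beside the members. Fau, which encodes a ubiquitin-like fusion with a small subunit protein, and Gnb2l1 (RACK1), a scaffold on the small subunit, did not pass against WT siGLO by edgeR. The counts that follow stand beside the 17.8% (Pds5a-/- siGLO), 18.2% (Pds5b-/- siGLO) and 32% (Pds5a-/- siPds5b) of all genes called. Among 36 ribosome biogenesis genes, 2 rose in Pds5a-/- siGLO mESCs, the U3 snoRNP protein gene Rrp9 and fibrillarin (Fbl), 1 rose in Pds5b-/- siGLO mESCs (Rrp1b), and 1 rose and 6 fell in Pds5a-/- siPds5b mESCs, which is 5.56%, 2.78% and 19.4% of the list. Among 17 translation factors listed for 5′ TOP starts, Eif3f rose in Pds5a-/- siGLO mESCs (0.33 ± 0.06, adjusted p = 0.000502), Eif3k (-0.33) and Btf3 (-0.30) fell in Pds5b-/- siGLO mESCs, and in Pds5a-/- siPds5b mESCs 3 rose and 1, nucleophosmin (Npm1), fell. These are 5.88%, 11.8% and 23.5% of the list. Among 14 regulators of ribosomal protein genes, 3 rose in Pds5b-/- siGLO mESCs (Mycn, Mdm2 and Larp1). In Pds5a-/- siPds5b mESCs 2 rose, Larp1 (0.48 ± 0.09, adjusted p = 0.00017) and the S6 kinase gene Rps6kb1 (0.34 ± 0.07, adjusted p = 0.000215), and 1 fell, the ETS factor gene Gabpa (-0.38 ± 0.06, adjusted p = 3.31e-05), and each of these counts is 21.4% of the list. In Pds5a-/- siGLO mESCs 0 passed by edgeR (5 at an unadjusted p under 0.05). Of 13 RNA polymerase I genes, 0 passed by edgeR in Pds5a-/- siGLO (4 at an unadjusted p under 0.05) and 2 rose in Pds5b-/- siGLO mESCs (Taf1c and Polr1b), 15.4% of the list. In Pds5a-/- siPds5b mESCs Polr1a rose (0.38) and Twistnb fell (-0.74, adjusted p = 2.38e-05), also 15.4%. Of 7 snoRNA host genes, 1 passed against WT siGLO, Snhg5, which fell in Pds5a-/- siStag2 mESCs, 14.3% of the list beside 30.1% of all genes. Of the 7, 0 passed by edgeR in Pds5b-/- siGLO mESCs, with a median of -0.26, all 7 values below 0 and 3 at an unadjusted p under 0.05.

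Gene groups of other machines had medians below 0 in the comparisons where most members had lower values. In Pds5b-/- siGLO mESCs the median log2 fold change was -0.27 for 77 oxidative phosphorylation genes, -0.21 for 76 mitochondrial ribosomal proteins, -0.22 for 38 proteasome genes and -0.19 for 256 other short abundant genes, beside -0.24 for the members. Of these, 21, 14, 9 and 45 fell and 0, 0, 1 and 13 rose by edgeR, beside 8.57% of all genes lower and 9.64% higher. In Pds5a-/- siStag2 mESCs the medians were -0.22, -0.24, -0.20 and -0.13, beside -0.17 for the members, and 19, 27, 11 and 52 fell and 0, 1, 0 and 25 rose, beside 13.9% of all genes lower and 16.2% higher. In Pds5a-/- siPds5b mESCs the medians were -0.16, -0.20, -0.12 and -0.10, beside -0.19 for the members, and 18, 20, 8 and 48 fell and 1, 3, 2 and 31 rose, beside 14.6% of all genes lower and 17.4% higher. In Pds5a-/- siGLO mESCs each of these medians lay between -0.02 and 0.03. The reason for these shared shifts was not tested.

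Rpl13 lies on chromosome 8. Genes of that chromosome had a median log2 fold change of -0.19 in Pds5a-/- siGLO and 0.30 in Pds5b-/- siGLO mESCs, and -0.48 between the knockouts. Rpl13 had -0.29 ± 0.09 (adjusted p = 0.0221) and -0.01 ± 0.09 (adjusted p = 0.956) in the same comparisons with WT siGLO. The part of the chromosome in the values of Rpl13 was not tested.

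Marker genes changed beside the members. The summed normalized counts of 8 pluripotent stem cell markers, led by Tdgf1, were 110000 to 118700 in WT siGLO, 81810 to 94670 in Pds5a-/- siGLO, 88600 to 95380 in Pds5b-/- siGLO, 69440 to 77700 in Pds5a-/- siPds5b, 81470 to 87240 in Pds5a-/- siStag1 and 67280 to 75560 in Pds5a-/- siStag2 mESCs. Of the 8, 5 fell in Pds5a-/- siGLO, 4 in Pds5b-/- siGLO, 6 in Pds5a-/- siPds5b, 5 in Pds5a-/- siStag1 and 7 in Pds5a-/- siStag2 mESCs, and none was at 0. The 1 that rose was Utf1 in Pds5b-/- siGLO mESCs (0.77, adjusted p = 0.000109). The 6 markers of two-cell-like cells, led by Zscan4c, summed to 1339 to 1992 in WT siGLO, 171 to 255 in Pds5a-/- siGLO, 660 to 1023 in Pds5b-/- siGLO and 1016 to 1922 in Pds5a-/- siPds5b mESCs. The 7 fibroblast markers, led by Col1a1, summed to 1068 to 1493 in WT siGLO and 305 to 432 in Pds5b-/- siGLO mESCs, while Dcn and Lum were too low to test. Low sums also occurred in Pds5a-/- mESCs, at 333 to 1396 with siGLO, 442 to 1305 with siPds5b and 295.5 to 921 with siStag1. With siStag2 they were 581 to 863.5. In Pds5b-/- siGLO mESCs Postn (-3.68) and Thy1 (-0.76) had the largest called falls, and Col1a1 was not among them. The 6 primitive endoderm markers, led by Dab2, summed to 851 to 1469 in WT siGLO and 1432 to 2632 in Pds5b-/- siGLO mESCs, and none passed in edgeR (0 at an unadjusted p under 0.05 in Pds5a-/- siGLO and 2 in Pds5b-/- siGLO mESCs). The 4 neuroectoderm markers, led by Nes, summed to 2578 to 3604 in WT siGLO, 2162 to 2590 in Pds5a-/- siGLO and 2972 to 3156 in Pds5b-/- siGLO mESCs. In Pds5a-/- siGLO mESCs Sox1 (-1.28) and Nes (-0.96) fell, and Pax6 and Pou3f1 had positive values, 0.82 and 0.45, that did not pass (adjusted p = 0.0414 and 0.0577). In Pds5b-/- siGLO mESCs Pax6 (2.20) and Sox1 (1.43) rose, and Nes and Pou3f1 had negative values, -0.50 and -0.49, that did not pass (adjusted p = 0.0543 and 0.0418). The 4 trophoblast markers, led by Eomes, summed to 374 to 629 in WT siGLO, 465 to 653 in Pds5a-/- siGLO and 339 to 400 in Pds5b-/- siGLO mESCs. The sums hide opposite changes, since Hand1 (3.50) and Cdx2 (1.90) rose and Eomes (-1.25) fell in Pds5a-/- siGLO mESCs, and Cdx2 (2.94) rose and Eomes (-0.99) fell in Pds5b-/- siGLO mESCs. Their part in the changes of the members was not tested.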

How the data were processed

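The authors made poly-A libraries, sequenced paired ends and aligned them to mm10 with STAR. The deposited values are raw read counts per gene symbol, and the counting tool, annotation and use of strand are not given in the sources used here. All 21 libraries (17311090 to 23989198 counts) were used. Differential expression was tested with edgeR 4.0.16 (R 4.3.3), with filterByExpr, TMM and 1 robust quasi-likelihood model of the 7 conditions, Benjamini-Hochberg adjustment over 14963 genes and calls at an adjusted p under 0.01. Standard errors are the size of the log2 fold change over the square root of F. The script was tested on simulated data. Medians and shares have no test. Counts at an unadjusted p under 0.05 are given without the share of all genes at that threshold and are not read as results.

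The members and gene lists were chosen with earlier results of these data known. Rps19bp1, which matches the symbol rule but is not a ribosomal protein, was left out. Named genes were, per comparison, up to 5 called members with the largest rise and 5 with the largest fall without overlapping libraries, the paralogs, stalk and 5S partners, chromosome 8 members and, per list, the 2 largest changes each way. Not all are printed, and some results are not reported here. Rps7, and members named for their spread, low counts or opposite siPds5b values, were chosen after their values were seen. Length was that of the shortest CCDS transcript in GENCODE M21 (GRCm38), which held 98.49% of symbols. Promoters came from RefSeq. The paired libraries were checked by the correlation of deviations from condition means over 11735 genes. All 3 same-number pairs exceeded 0.1 for Pds5b-/- against WT siGLO (0.1034 to 0.3149), siPds5b in WT (0.3503 to 0.5303), and siPds5b (0.3436 to 0.6945), siStag1 (0.1467 to 0.6162) and siStag2 (0.1415 to 0.2651) in Pds5a-/- mESCs. In the labels the libraries share only a number. For Pds5a-/- siGLO against WT siGLO (median 0.2435) and between the knockouts (median 0.1862), 2 of the 3 pairs exceeded 0.1. Against WT siGLO, 1 pair did for Pds5a-/- siPds5b, 1 for Pds5a-/- siStag1 and 0 for Pds5a-/- siStag2. Of the 21 libraries, 16 correlated best with their own number. Alternatives were DESeq2 1.42.0, other normalizations, filters and thresholds, fits of the conditions compared, the block, and leaving out each library. Figures were drawn with matplotlib.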

Additional observations from a re-analysis of the deposited data

Results flagged for a closer look

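The effects of the Pds5a and Pds5b knockouts against WT siGLO differed, by the direct edgeR test of Pds5a-/- siGLO against Pds5b-/- siGLO mESCs, in 10 members at an adjusted p under 0.01. That is 10 of the 83 tested members, beside 2873 of 14963 tested genes (19.2%). The log2 differences were 1.57 for Rpl39l, 1.42 for Rpl22l1, 0.44 for Rps26, 0.42 for Rpl23a, 0.35 for Rpl15, 0.34 for Rps15, 0.32 for Rpl24 and 0.32 for Rps25, all higher in Pds5a-/- mESCs, and -0.65 for Rpl22 and -0.78 for Rplp2. The differences of Rpl39l, Rpl22l1, Rpl22 and Rplp2 passed under every alternative run. The other 6 did not pass with only the conditions compared or without Pds5a-/- siGLO replicate 2, and each failed under at least 1 more alternative. In each of these members the 3 libraries of both knockouts did not overlap. This rests on the same values as the test and is no separate support. Groups of 3 libraries were too small for a test of outlying libraries.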

How the results depend on the processing

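The 31 named values had 494 alternatives, of which 420 kept the call, 74 kept the direction without the call and 0 reversed. The tally includes the threshold of 0.05 and the restriction to members with at least 100 mean normalized counts. Both reuse the main fit, so no call could be lost there, and the 420 overstate the support. The median log2 fold changes moved by less than the spread between replicates in 180 of 182 alternatives, the exceptions being -0.31 and -0.30 for siStag2 against WT siGLO and against Pds5a-/- siGLO without Pds5a-/- siStag2 replicate 2. That spread was 0.121 log2, pooled over the conditions. Medians at an adjusted p under 0.05 reuse the same values and could not move. Leaving out 1 of 3 libraries moves a condition mean by less than the SD of that condition. The 180 are therefore weak evidence of stability. At an adjusted p under 0.05 the counts of members called were 5 (Pds5a-/- siGLO), 35 (Pds5b-/- siGLO), 28 (Pds5a-/- siPds5b) and 25 (Pds5a-/- siStag2) against WT siGLO, 9 (siPds5b) and 2 (siStag2) against Pds5a-/- siGLO, and 38 between the knockouts. DESeq2 called 10 in Pds5b-/- siGLO and 14 in Pds5a-/- siStag2 against WT siGLO, and 3 (siPds5b) and 1 (siStag2) against Pds5a-/- siGLO. For siPds5b against Pds5a-/- siGLO the count was 0 with RLE, with library size only and with at least 10 counts in every library, and 2 with the replicate block, which moved no other count by over 1.5 times. With only the conditions compared, 4 members differed between the knockouts. The share of all genes called under each of these settings is not printed here. These counts therefore show only how the number of members called depends on the setting. Without the 100 most counted other genes the share of member counts was 9.44% (WT siGLO), 9.87% (WT siPds5b), 9.33% (Pds5a-/- siGLO), 8.08% (Pds5b-/- siGLO), 8.40% (Pds5a-/- siPds5b), 9.15% (Pds5a-/- siStag1) and 8.35% (Pds5a-/- siStag2), since the denominator was smaller. The cause of the other differences was not tested.

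With each library left out in turn, counts of members called against WT siGLO ranged from 1 to 3 (Pds5a-/- siGLO), 2 to 27 (Pds5b-/- siGLO), 6 to 17 (Pds5a-/- siPds5b), 1 to 3 (Pds5a-/- siStag1) and 4 to 24 (Pds5a-/- siStag2). They ranged from 0 to 3 (siPds5b) and 0 to 1 (siStag2) against Pds5a-/- siGLO, and from 4 to 29 between the knockouts. Over all tested genes, 1763 to 2584 (Pds5a-/- siGLO), 1704 to 2611 (Pds5b-/- siGLO) and 3836 to 4505 (Pds5a-/- siPds5b) were called against WT siGLO. The same ranges were 2128 to 2509 for Pds5a-/- siStag1 and 3402 to 4036 for Pds5a-/- siStag2. Between the knockouts the range was 1722 to 2683. The medians ranged from -0.3115 to -0.065 for siStag2 against WT siGLO and from -0.3041 to -0.0826 against Pds5a-/- siGLO. A condition with a library left out has 2 libraries, assumed to vary like the others. Counts restricted to the 79 members with at least 100 mean normalized counts, an alternative chosen after seeing the data, changed by at most 1. Among members with few counts, depth limits Rpl3l, Rpl34, Rpl30 and Rps27.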
